A study of Homo sapiens with 4 samples.

Results

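The short arm of human chromosome 5, 5p, held 421 of the 9486 peaks deposited for the transcription factor SPIB in H1703 cells: 29 of 462 peaks from attached cells and 392 of 9024 from suspended cells. Peaks were taken as 5p peaks when their summit lay on chromosome 5 at or below position 48800000 of hg38. They were chosen by position alone, but the arm itself was selected on these peak lists, with its crowding already known. Its number of peaks is therefore given as a description. On the 5p side of the limit the last suspended summit lay at 45.81 Mb (11 tags, fold 8.19). On the other side the first suspended summit lay at 52.59 Mb (9 tags, fold 11.7) and the first attached summit at 54.31 Mb (17 tags, fold 17.24). The summit closest to the limit was 2.99 Mb away.

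All 4 libraries came from H1703 cells, an established line of human lung squamous cell carcinoma, that overexpressed SPIB. The groups were attached and suspended cells, each with 1 ChIP library made with the anti-FLAG M2 antibody and 1 input library of sonicated DNA. The treatment label names 24 h of suspension for every library, attached ones included, so the condition label was used to tell the groups apart. With 1 library per group there was no replicate check, and no test between conditions was possible. The intervals given cover counting error only or, for medians, the spread among peaks of 1 library. The filtered ChIP libraries held 21108364 (attached) and 20766909 (suspended) tags, and the inputs 15878452 and 21437074.

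SPIB belongs to the ETS family of transcription factors, whose members read a short purine-rich DNA core, GGAA, through a winged helix-turn-helix domain. It is best known from B cells and plasmacytoid dendritic cells, where it takes part in cell differentiation. The arm 5p carries the telomerase gene TERT near its tip, a gene-poor stretch of neuronal cadherin genes in its middle, and receptor, AMPK and cohesin-loading genes closer to the centromere. Extra copies of 5p are among the common chromosome changes of lung cancers.

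Of the 138 protein-coding genes of 5p with a sequence in the promoter table, 5 had a promoter met by a peak in both lists. Their sequences are shown because called peaks of both attached and suspended cells reached into them. Each is the 250 bases before the annotated start in RefSeq (GRCh38.p14), written 5′ to 3′ along the strand of the gene, with GGAA, or TTCC where the core lies on the other strand, in capitals. OSMR (chr5:38845762-38846011, plus strand) encodes a receptor subunit for oncostatin M. PRKAA1 (chr5:40798178-40798427, minus strand) encodes a catalytic subunit of the energy sensor AMPK. HMGCS1 (chr5:43313413-43313662, minus strand) encodes the cytosolic HMG-CoA synthase of the mevalonate pathway. ZFR (chr5:32444741-32444990, minus strand) encodes an RNA-binding zinc finger protein, and SRD5A1 (chr5:6633190-6633439, plus strand) a steroid 5-alpha-reductase.
OSMR: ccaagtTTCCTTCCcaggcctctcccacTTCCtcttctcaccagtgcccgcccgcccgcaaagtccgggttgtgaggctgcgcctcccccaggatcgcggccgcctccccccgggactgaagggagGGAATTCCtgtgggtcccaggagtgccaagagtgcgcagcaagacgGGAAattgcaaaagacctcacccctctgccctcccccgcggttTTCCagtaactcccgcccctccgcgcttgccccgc
PRKAA1: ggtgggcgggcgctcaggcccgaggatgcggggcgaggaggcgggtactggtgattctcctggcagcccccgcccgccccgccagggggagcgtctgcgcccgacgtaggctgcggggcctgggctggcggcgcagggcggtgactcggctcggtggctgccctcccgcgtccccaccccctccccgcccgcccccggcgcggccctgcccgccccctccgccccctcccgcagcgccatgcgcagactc
HMGCS1: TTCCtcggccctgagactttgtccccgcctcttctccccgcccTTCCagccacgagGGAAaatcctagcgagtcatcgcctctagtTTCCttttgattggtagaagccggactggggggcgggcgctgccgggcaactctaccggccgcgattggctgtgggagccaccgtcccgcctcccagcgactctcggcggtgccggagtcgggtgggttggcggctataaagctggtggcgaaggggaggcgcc
ZFR: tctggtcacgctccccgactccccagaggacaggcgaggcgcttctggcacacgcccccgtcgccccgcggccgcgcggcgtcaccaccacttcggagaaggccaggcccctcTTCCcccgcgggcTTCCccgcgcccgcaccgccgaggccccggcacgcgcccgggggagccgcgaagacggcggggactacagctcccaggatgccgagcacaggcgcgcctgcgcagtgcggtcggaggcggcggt
SRD5A1: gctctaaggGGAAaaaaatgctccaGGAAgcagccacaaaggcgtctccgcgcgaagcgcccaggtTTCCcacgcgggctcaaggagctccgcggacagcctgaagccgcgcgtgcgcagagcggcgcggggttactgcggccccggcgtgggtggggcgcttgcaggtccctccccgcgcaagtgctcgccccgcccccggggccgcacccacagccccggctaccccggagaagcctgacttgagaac

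The OSMR promoter held the core 7 times, that of HMGCS1 4 times, SRD5A1 3 times and ZFR 2 times. The PRKAA1 promoter held it 0 times, although its suspended peak had 172 tags, with a summit 293 bp downstream of the start. The suspended summit lay within the printed bases only at OSMR (-228 bp from the start) and HMGCS1 (-235 bp). It lay outside them at PRKAA1, SRD5A1 (-488 bp) and ZFR (711 bp), so the counts there are not counts at the summit. A match is only a description of these letters. The core GGAA, searched on both strands, occurred in 92.7% of all 35116 RefSeq promoters of this length, in 93.4% of the 76 on 5p that met a suspended peak, and in 93.7% of the 315 on 5p that did not. GAGGAA, the longer form favoured by SPIB and its relative PU.1, contains GGAA and occurred in 23.6% of all promoters, in 32.9% (95% Clopper-Pearson interval 22.5 to 44.6) of those on 5p with a suspended peak and in 23.2% of those without. CCGGAA, a form read by many other ETS factors, also contains GGAA. It occurred in 14.5% of all promoters, in 34.2% (23.7 to 46) on 5p with a suspended peak and in 11.4% (8.13 to 15.5) without. CCGGAA occurred in 28.4% of all 2018 promoters that met a suspended peak and in 27.2% of the 114 on the rest of chromosome 5. Its higher share at promoters with a peak was thus not particular to 5p. For GAGGAA these shares were 29.0% and 25.4%. The promoters on 5p that met a suspended peak had a median GC content of 69.0%, against 49.6% for those that did not and 58.0% over all promoters. Median GC content was 65.6% for all promoters that met a suspended peak and 66.0% for those on the rest of chromosome 5. The part that GC content has in these motif shares was not tested. Of the 391 promoters on 5p in the table, 19.4% met a suspended peak, against 7.67% of the 1487 on the rest of chromosome 5.

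Peaks stood closer together on 5p than on the rest of chromosome 5. In suspended cells there were 8.03 peaks per Mb on 5p (95% Poisson interval 7.26 to 8.87) and 3.26 (2.96 to 3.58) on the other 132.7 Mb of the chromosome, where 432 peaks lay. In attached cells 5p had 0.594 peaks per Mb (0.398 to 0.854) and the rest of the chromosome 0.151 (0.0921 to 0.233), from 20 peaks. The arm makes up 26.9% of the chromosome's length and held 47.6% of its suspended and 59.2% of its attached peaks. Among whole chromosomes, the densest in suspended cells were chromosome 17 with 8.84 peaks per Mb and chromosome 19 with 8.53, so 5p lay close to the gene-rich chromosomes although it has fewer protein-coding genes per Mb (3.22) than the rest of chromosome 5 (5.56). Counted against genes, 5p had 25 suspended peaks for every 10 protein-coding genes and the rest of the chromosome 5.86. Suspended peaks were 13.5 times as many as attached peaks on 5p and 21.6 times as many on the rest of the chromosome.

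In suspended cells the surplus on 5p lay among peaks of modest fold. The fold limit of 10 was chosen after seeing the data. Fold is the authors' ratio of tags at the summit to the local background. At a fold of at least 6, 5p held 4.06 suspended peaks per Mb and the rest of chromosome 5 held 2.77. At a fold of at least 8 the order turned, with 77 peaks (1.58 per Mb) on 5p and 265 (2.0 per Mb) on the rest. At a fold of at least 10, 29 peaks (0.594 per Mb, 0.398 to 0.854) remained on 5p and 182 (1.37 per Mb, 1.18 to 1.59) on the rest, which makes 5p 0.433 times as dense. Past a fold of 15 only 2 of the 5p peaks were left, against 25. Limits on the authors' score, which is minus 10 times log10 of the peak's p-value, did not turn the order: 34 peaks of 5p and 46 of the rest had a score of at least 100, which is 2.01 times as many per Mb on 5p. Attached peaks kept the same order at each fold limit tried, with 18 peaks on each side at a fold of at least 10, 2.72 times as many per Mb on 5p.

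**Figure D1:**
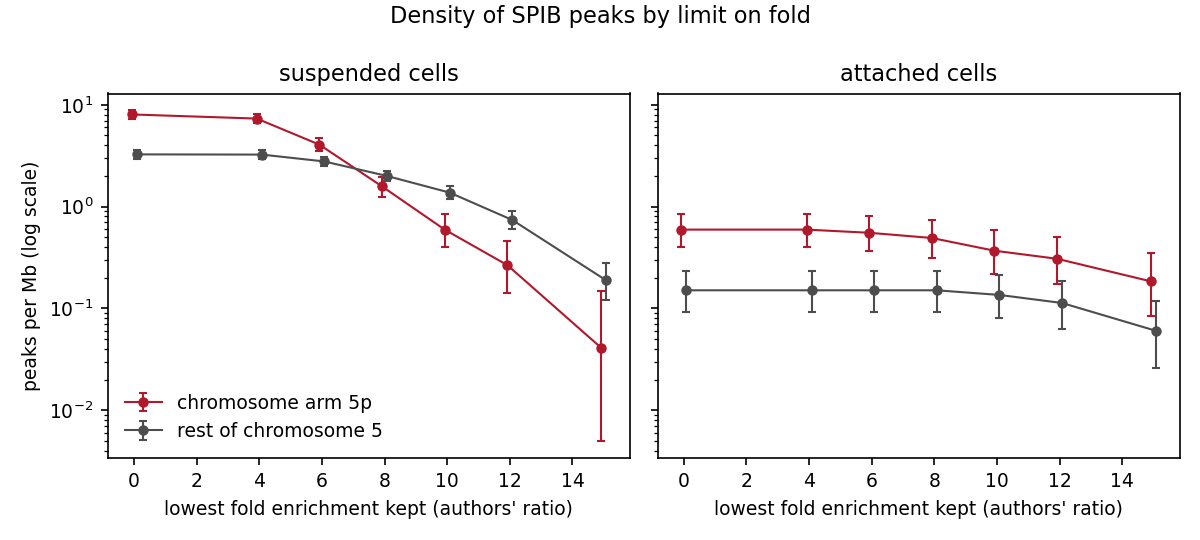
Peaks per Mb (y axis, log scale) that reach a given fold enrichment over local background (x axis, the authors' ratio; 0 keeps all peaks), for chromosome arm 5p and the rest of chromosome 5, with suspended cells on the left and attached cells on the right; bars are 95% Poisson intervals for counting error. In suspended cells the 5p line starts above the other at 8.03 against 3.26 peaks per Mb and lies below it from a fold of 8 on, while in attached cells it stays above.

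Suspended peaks on 5p were wider, held more tags and sat on a higher local background than those on the rest of chromosome 5 and on the other chromosomes pooled. Their median width was 390.5 bp, against 248.5 bp on the rest of chromosome 5 and 247 bp on all other chromosomes. They held a median of 27 tags (95% interval of the median 24 to 30), against 14 (13 to 16) and 14, but their median fold was 6.01 (5.78 to 6.30), against 9.34 (8.74 to 9.80) and 9.27. The 392 peaks together held 16149 tags over 210.4 kb, or 76.7 tags per kb, and the 432 on the rest of the chromosome 8528 tags over 136.6 kb, or 62.4 tags per kb. The local background behind each peak is not a deposited column, and was solved from the deposited tags, score and fold, on the scale of the smaller library of each pair, so that it is compared only within a list. It had a median of 24.2 tags per kb (22.6 to 25.2) on 5p, 12.6 (11.6 to 13.9) on the rest of chromosome 5 and 12.6 on the other chromosomes, a ratio of 1.92 between 5p and the rest of chromosome 5. Single chromosomes differed, with medians of 19.3 on chromosome 17, the densest in suspended peaks, 15.5 on chromosome 10 and 15.2 on chromosome 12. The genome-wide minimum of the background in this list is 6.39 tags per kb, and 2 of the 392 peaks on 5p (0.510%) stood on it, against 29 of 432 (6.71%) on the rest.

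The higher background of suspended 5p peaks was found at gene ends and away from them. It was 38.8 against 19.4 tags per kb for summits within 1 kb of a gene end, 23 against 10.7 inside genes, and 20.6 against 9.88 between genes. Suspended gene-end peaks of 5p had a median width of 924 bp and 78 tags, against 366 bp and 24 tags on the rest of the chromosome. In attached cells the 29 peaks of 5p had a median background of 12.1 tags per kb and 20 tags, and the 20 on the rest of the chromosome 9.45 and 16. At gene ends the attached background was 25.6 tags per kb on 5p (8 peaks) and 9.0 on the rest (7 peaks), with 55 and 25 tags. Inside genes it was 9.70 (9 peaks) and 10.05 (12 peaks). The part that this background has in the number, width and fold of the 5p peaks was not tested.

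**Figure D2:**
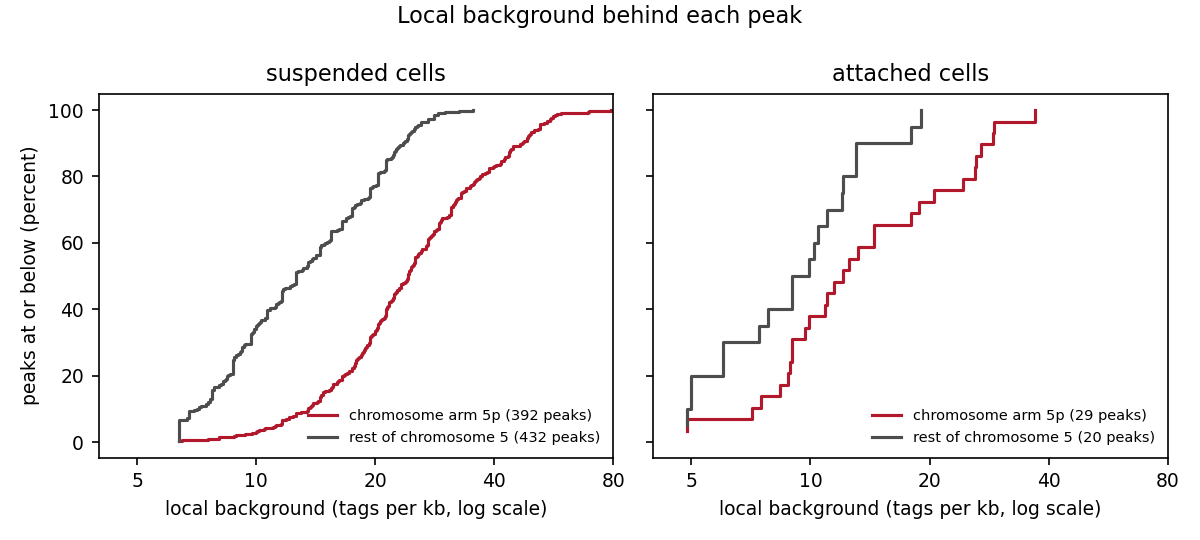
Share of peaks (y axis, percent) with a local background at or below the value on the x axis (tags per kb, log scale), for suspended cells on the left and attached cells on the right. The suspended 5p curve lies to the right of the other from just above the minimum of 6.39 on, with medians of 24.2 and 12.6 tags per kb, and the attached curves lie closer together, with medians of 12.1 and 9.45.

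The difference between 5p and the rest of the chromosome was also present among windows with like numbers of genes. Windows of 1 Mb were laid from the first to the last gene of each side, 46 on 5p and 132 on the rest. Each of the 46 on 5p held a suspended peak, with a median of 6 and a range of 1 to 38, while 112 of the 132 others did, with a median of 2 and a maximum of 15. Windows without a protein-coding gene start held 4.27 suspended peaks on 5p (11 windows) and 1.27 on the rest (15 windows). Windows with 1 to 4 gene starts held 7.76 and 1.92, and those with 5 or more held 13.0 and 5.17. Within 5p the number of suspended peaks went with the number of gene starts over the 46 windows (Pearson's r = 0.677, Spearman's rank correlation 0.610), which share 1 library and are neighbours on the chromosome.

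**Figure D3:**
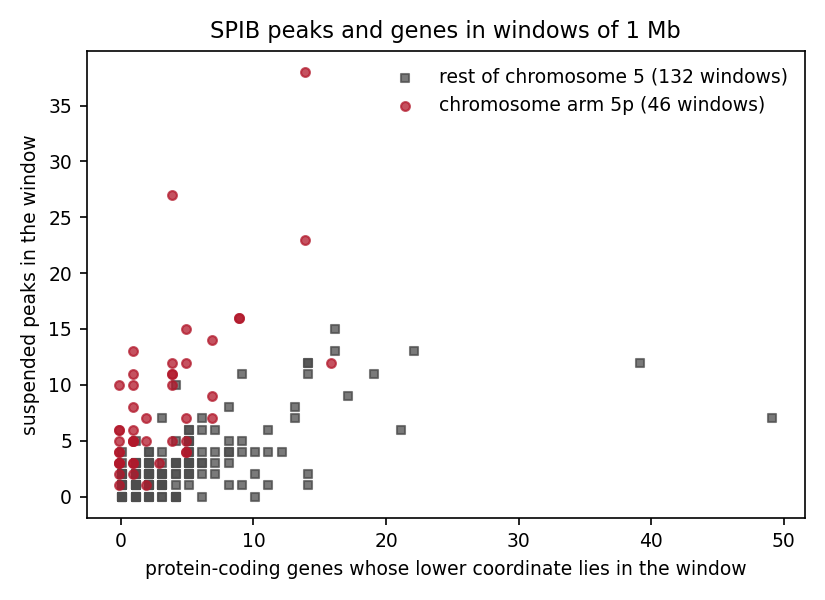
Suspended SPIB peaks per window of 1 Mb (y axis) against the number of protein-coding genes whose lower coordinate lies in the window (x axis), with 46 windows of 5p as circles and 132 of the rest of chromosome 5 as squares. Windows with 5 or more gene starts hold 13.0 peaks on 5p and 5.17 on the rest, and 14 windows of 5p hold more than 10 peaks, against 9 of the rest.

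The fullest window was the tip of the arm, from 0 to 1 Mb, with 38 suspended peaks. Over 0 to 3 Mb there were 74 peaks, 24.7 per Mb, on a median background of 28.0 tags per kb. Of 18 genes listed around TERT at this tip, 14 had a suspended peak inside or no more than 5 kb away, 8 had a summit within 1 kb of a gene end, and 1, LPCAT1, had an attached peak. Over all protein-coding genes of 5p these shares were 65.0%, 43.3% and 8.92%. BRD9, a subunit of a BAF chromatin remodelling complex, and TRIP13, an ATPase of the mitotic checkpoint, start next to each other and shared the 5p peak with most tags (204, Poisson interval 177 to 234, chr5:891647-893785, fold 4.46). The only peak counted for TERT lay outside the gene and counts because its edge came within 5 kb. It had 50 tags, fold 3.97, a score of 50.43 and an FDR of 6.32%. Its summit lay 5366 bp beyond the end of TERT at the lower coordinate and 1612 bp from SLC6A18. SLC6A18, an amino acid transporter gene, had a stronger one with 78 tags and fold 10.08. SLC9A3, a sodium-proton exchanger gene, held a peak of 166 tags over 2209 bp.

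Other genes of the tip carried several peaks each. SDHA, the flavoprotein subunit of respiratory complex II, had 4, of which the largest, with 116 tags, lay at the start of PDCD6, a calcium-binding protein gene. AHRR, which encodes a repressor of the aryl hydrocarbon receptor, had 5 peaks, with 94 tags at its start. ZDHHC11, a palmitoyltransferase gene, had 7 peaks of 13 to 43 tags, 132 to 714 bp wide, and 1 of them, with 13 tags, had a fold of 12.98. ZDHHC11 has a near-identical neighbour, ZDHHC11B, and its count is uncertain, since the sources used here do not give how tags that match both were placed. CLPTM1L, SLC6A3, SLC12A7 and NKD2 had no suspended peak. Of the Iroquois homeobox genes on 5p, developmental regulators near the tip, IRX4 had 2 suspended peaks (38 and 35 tags) and IRX1 and IRX2 had none.

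TRIO was the protein-coding gene of 5p with the most suspended peaks. It encodes a guanine nucleotide exchange factor for small GTPases, spans 366.9 kb (chr5:14143342-14510204), and had 13 peaks of 30 to 135 tags and folds of 3.64 to 7.49. The largest, with 135 tags, lay across its start, and 2 more, with 123 and 70 tags, adjoined it. The window from 14 to 15 Mb, which also holds part of DNAH5, OTULINL, OTULIN and ANKH, had 27 peaks, the second highest number on the arm, and the window from 1 to 2 Mb had 23. OTULIN, a deubiquitinase of linear ubiquitin chains, had adjoining peaks of 104 and 55 tags at its start, and ANKH, a gene of pyrophosphate transport, a peak of 116 tags. DNAH5, a dynein heavy chain gene of motile cilia, had 6 peaks, and 1 of them, inside the gene, had 37 tags at a fold of 15.73, the second highest of the 392. The stretch from 10 to 18 Mb as a whole had 11.1 suspended peaks per Mb on a median background of 30.3 tags per kb.

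Peaks with summits no more than 10 kb apart were joined into clusters. On 5p, 55 clusters took up 126 of the 392 suspended peaks (32.1%), and on the rest of the chromosome 34 clusters took up 70 of 432 (16.2%). Clusters of 4 or more peaks were found 4 times on 5p and 0 times on the rest. The longest, over CEP72 and TPPP (chr5:648053-679568), had 6 peaks of 16, 33, 27, 41, 59 and 31 tags; CEP72 is a centrosome protein and TPPP promotes tubulin polymerization. The cluster at CMBL, a hydrolase gene (chr5:10297749-10316257), had 36, 96, 64 and 46 tags, and that at the start of TRIO (chr5:14132484-14145631) had 41, 135, 123 and 70. BASP1, a membrane-bound signalling protein of neurons, had 126, 110, 71 and 24 tags over chr5:17216086-17225873. Its first 3 peaks adjoined one another almost without a gap, from the start of the gene inward. Folds in these 4 clusters ranged from 3.64 to 6.36, and a cluster of 3 peaks around C1QTNF3 (10, 67 and 104 tags) had a background of up to 69.3 tags per kb.

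The middle of the arm, from 18 to 31 Mb, differed from its flanks. It holds 6 protein-coding genes, among them the long cadherin genes, and had 61 suspended peaks, 4.69 per Mb, of which 38 lay between genes and 1 at a gene end. Their median background was 14.6 tags per kb, their median tag number 15 and their median fold 8.10. Over all positions these medians were closer to the rest of chromosome 5 than those of the other 5p stretches, whose median backgrounds were 20.4 to 30.3. The mix of positions differed, since 33.8% of suspended summits on the rest of chromosome 5 lay at gene ends, where background was higher. Outside gene ends the median background was 14.7 tags per kb in this stretch and 19.7 to 27.6 in the other stretches. On the rest of chromosome 5 it was 10.7 inside genes and 9.88 between genes. CDH18 had 5 peaks of 10 to 16 tags and CDH12 6 of 8 to 17 tags, deep inside genes of 1104 and 1103 kb, and CDH6, outside this stretch, had 1 of 38 tags. CDH9 and CDH10 had no suspended peak. Cadherins are calcium-dependent adhesion molecules, and of the 5 classical ones on 5p, 3 had a suspended peak, 2 (CDH9 and CDH12) an attached peak, and 0 a summit at a gene end. Over all protein-coding genes of 5p, 65.0% had a suspended peak, 8.92% an attached peak and 43.3% a suspended summit at a gene end. The middle stretch also held the suspended peak of highest fold on the arm, 17.12 with 10 tags, inside LOC105374685, and those in LINC02241 (14.7, 8 tags) and beside LOC105374702 (13.51, 14 tags). Of the 12 suspended peaks of highest fold, 9 had fewer than 15 tags.

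Relative to genes, 93 of the 392 suspended summits (23.7%, Clopper-Pearson interval 19.6 to 28.3) lay within 1 kb of a gene end, 165 (42.1%) further inside a gene and 134 (34.2%) between genes. On the rest of chromosome 5 the shares were 33.8%, 40.05% and 26.2%. A distance of more than 100 kb from any protein-coding gene was found for 113 of the suspended 5p summits (28.8%, 24.4 to 33.6), and for 10.6% (7.90 to 14.0) of the others. Measured from the annotated starts of protein-coding genes, 61 summits of 5p (15.6%) lay within 1 kb, and 120 of the rest (27.8%). On 5p 18 of these were within 250 bp of the start, 15 lay further upstream and 28 further downstream, while on the rest of the chromosome 64 were within 250 bp, 22 upstream and 34 downstream.

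**Figure D4:**
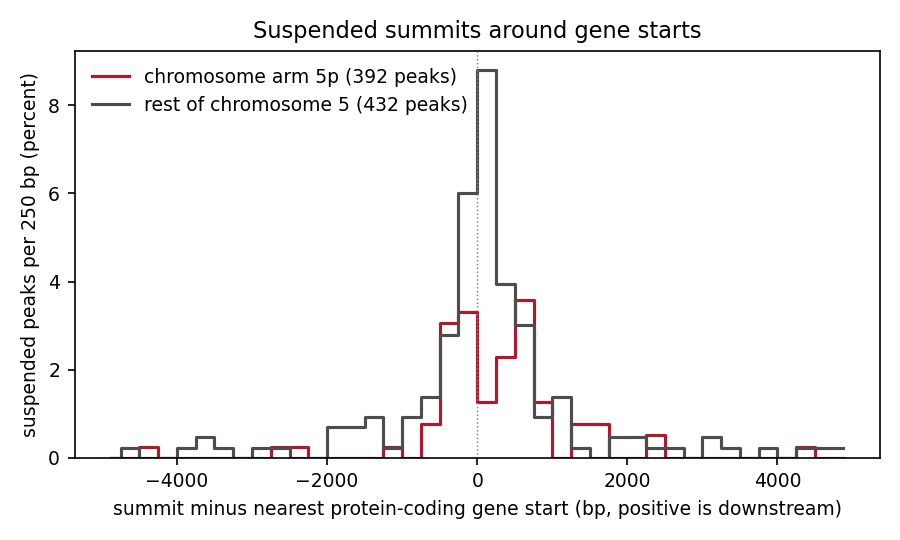
Share of all suspended peaks of a region per bin of 250 bp (y axis, percent) by distance of the summit from the nearest protein-coding gene start (x axis, bp, positive is downstream). The rest of chromosome 5 has its highest bins next to the start, while on 5p summits to either side of the start are more frequent than those directly downstream of it, with 18 of 392 summits within 250 bp against 64 of 432.

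Of the 157 protein-coding genes of 5p, 102 (65.0%, 57.0 to 72.4) had a suspended peak inside or no more than 5 kb away, against 28.9% of all 19884 protein-coding genes and 32.8% of the 737 on the rest of chromosome 5. A suspended summit within 1 kb of a gene end was found for 68 (43.3%, 35.4 to 51.5), against 13.9% of all genes and 15.7% on the rest. In attached cells 14 genes of 5p (8.92%) had such a peak, against 1.86% of all genes, and 7 (4.46%) a summit at a gene end, against 0.815%. These shares rest on the positions by which the arm was chosen, and are given with no test. The 102 genes with a suspended peak were longer, with a median of 54.5 kb, than the 55 without, with 22.7 kb.

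The gene lists below were chosen for this arm with earlier results of these data known. Together they hold 83 genes of 5p, of which 59 had a suspended peak, 40 a suspended summit at a gene end and 10 an attached peak. Over all 157 protein-coding genes of 5p these shares were 65.0%, 43.3% and 8.92%. Each list count below stands beside these shares and is not read as a trait of the listed genes. Genes of the cell cycle, chromatin and RNA handling had a suspended peak in 16 of 17 members, 14 of them at a gene end. NIPBL, which loads cohesin onto DNA, had 178 tags over 2001 bp at the start it shares with its divergent transcript. CCT5, a subunit of the chaperonin TRiC, had 140 tags at fold 8.81, and NUP155, a nuclear pore protein gene, 112 tags at its start among 5 peaks. ZNF131, a zinc finger transcription factor gene, had 154 tags, SUB1, a transcription coactivator gene, 89, and RAD1, a DNA damage checkpoint clamp gene, 121, the last in a peak shared with its neighbour BRIX1. MED10, a Mediator subunit gene, had peaks of 48 and 55 tags, DROSHA, the nuclease that starts microRNA processing, peaks of 19 and 47, and SKP2, a ubiquitin ligase subunit gene of the cell cycle, had none.

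The genes listed under mitochondrial proteins and translation had a suspended peak in 13 of 15 members and at a gene end in 12. The list is a broad one, and the 13 include MTRR, described below, and LMBRD2, with 25 tags inside the gene. MRPL36, a mitochondrial ribosome protein gene, and NDUFS6, a complex I subunit gene, start next to each other and had peaks of 141 and 89 tags around their starts. OXCT1, which encodes an enzyme of ketone body use, had 150 tags at fold 5.15. TARS1, a threonyl-tRNA synthetase gene, had 128, RPL37, a ribosomal protein gene, 117, and PAIP1, a partner of the poly(A)-binding protein, 69. MTRR, an enzyme gene of methionine synthesis, shared a peak of 95 tags with FASTKD3 and had an attached peak of 36 tags 2781 bp from its end. MRPS30 and NNT had no suspended peak.

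Autophagy, AMPK and MTOR genes had a suspended peak in 6 of 7 members. PRKAA1 had 4, of which that at its start had 172 tags and a score of 227.9. RETREG1, a receptor for autophagy of the endoplasmic reticulum, had 52 tags with the summit 252 bp before its start, and GOLPH3, a Golgi protein gene, had 136 tags at its start. NIM1K, a kinase gene related to AMPK, had peaks of 18 and 27 tags, and DAP, a death-associated protein gene tied to autophagy, 1 of 45 tags deep inside the gene. RICTOR, the defining subunit of MTOR complex 2, had no suspended peak but an attached peak of 19 tags at a fold of 14.22 inside the gene, with an FDR of 82.9%.

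Of the 5 class I cytokine and hormone receptor genes, 3 had a suspended peak. OSMR had 183 tags (157 to 211) over 1824 bp across its start, and a second peak of 32 tags. GHR, the growth hormone receptor gene, had 68 tags at fold 6.25 with a summit 30 bp from its end at the lower coordinate. LIFR, the receptor gene for leukaemia inhibitory factor, had peaks of 25 and 34 tags inside the gene, and IL7R and PRLR had none. Of 8 complement and innate immunity genes only CCL28, a mucosal chemokine gene, had suspended peaks, with 20, 32 and 44 tags inside the gene, while C6, C7, C9, FYB1, DAB2, PTGER4 and CARD6 had none. The 12 genes listed as neuronal include TENT4A, which is also counted under cell cycle, chromatin and RNA handling. Of these 12, 9 had a suspended peak, 4 of them at a gene end (BASP1, TRIO, GDNF and TENT4A). Among them GDNF, a neurotrophic factor gene, had 115 and 52 tags, CTNND2, delta-catenin, 3 peaks of 18 to 28 tags, SEMA5A, a guidance cue gene, 3 of 19 to 23, and ADCY2, an adenylyl cyclase gene, 4 of 17 to 24. Of the 18 genes that have been proposed as drivers of 5p gain in cancer, 15 had a suspended peak, 12 at a gene end, and 4 an attached peak (RICTOR, OSMR, PRKAA1 and NSUN2). SKP2, RICTOR and FGF10 had no suspended peak.

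The 10 suspended peaks with most tags on 5p were broad, and their folds ran from 2.87 to 6.66. After BRD9 and TRIP13 with 204 tags and OSMR with 183 came MARCHF6, a ubiquitin ligase gene of the endoplasmic reticulum (179 tags, fold 4.31). NIPBL (178), MYO10 (177), PRKAA1 (172), SLC9A3 (166), ZNF131 (154) and OXCT1 (150) followed. The tenth, at ANKRD33B, had 146 tags and a fold of 2.87, the lowest of the 392. MYO10, a myosin of filopodia, had the widest peak, 2447 bp. None of these 10 was among the 12 of highest fold, and 2 of them, OSMR and PRKAA1, were also called in attached cells.

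In attached cells the 29 peaks of 5p were spread differently: 8 lay at a gene end, 9 further inside a gene and 12 between genes, against 7, 12 and 1 of the 20 on the rest of the chromosome. Their tag numbers ran from 8 to 91. Most were weakly supported, since 23 of the 29 had an FDR of 100%, as had 13 of the 20 on the rest, which means that exchanging ChIP and input gave at least as many peaks of that score. Only the peak at MARCHF11, a membrane-bound ubiquitin ligase gene, had an FDR of at most 5%. A further peak, of 13 tags, lay at chr5:10429-10529, next to the end of the assembled chromosome, at a fold of 22.64 and an FDR of 22.5%.

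Of the attached 5p peaks, 7 (24.1%, 10.3 to 43.5) had a suspended peak on at least 1 bp of the same ground, against 45.5% of all 462 attached peaks and 7 of 20 (35.0%) on the rest of the chromosome. Read from the other list, 7 of the 392 peaks (1.79%) met an attached one, against 2.35% over the whole suspended list. The shared attached peaks had a median of 65 tags, against 17 for the 22 that were not shared. At the start of OSMR there were 84 attached tags (67.0 to 104) and 183 suspended tags (157 to 211), on 793 and 1824 bp. At PRKAA1 there were 45 (32.8 to 60.2) and 172 (147 to 200), on 577 and 1534 bp, with summits 858 bp apart. HMGCS1 had 91 and 139 tags, ZFR 72 and 112, and the start shared by NSUN2, an RNA methyltransferase gene, and SRD5A1 had 65 and 111. MARCHF11 had 45 and 69 tags with the highest folds of the 7 sites (17.89 and 14.41) and an FDR of 0 in both lists. A site between genes, nearest to the pseudogene LOC100422687 in the window of OTULINL, had 22 and 19.

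Suspended tags were higher at 6 of the 7 shared sites after scaling to the filtered ChIP tags, with a median ratio of 1.58 and a range of 0.878 to 3.89, and the tag intervals did not overlap at 5. The suspended peak was also the wider one at 6 of the 7. Per base pair of called peak the ratio was 1.04 in the median (0.834 to 1.46), and it was highest at PRKAA1 and next at HMGCS1 (1.41). The part that peak width has in these ratios was not tested. The deposited fold was lower in the suspended list at all 7 sites. It was 5.35 against 7.11 at PRKAA1, 6.66 against 7.92 at OSMR and 3.45 against 5.95 at NSUN2. The folds of the lists are on unlike scales, however. The implied background is on the scale of the smaller library, the input in the attached pair and the ChIP in the suspended pair. The implied summit heights were whole without such scaling. These folds therefore give no direction between the conditions.

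**Figure D5:**
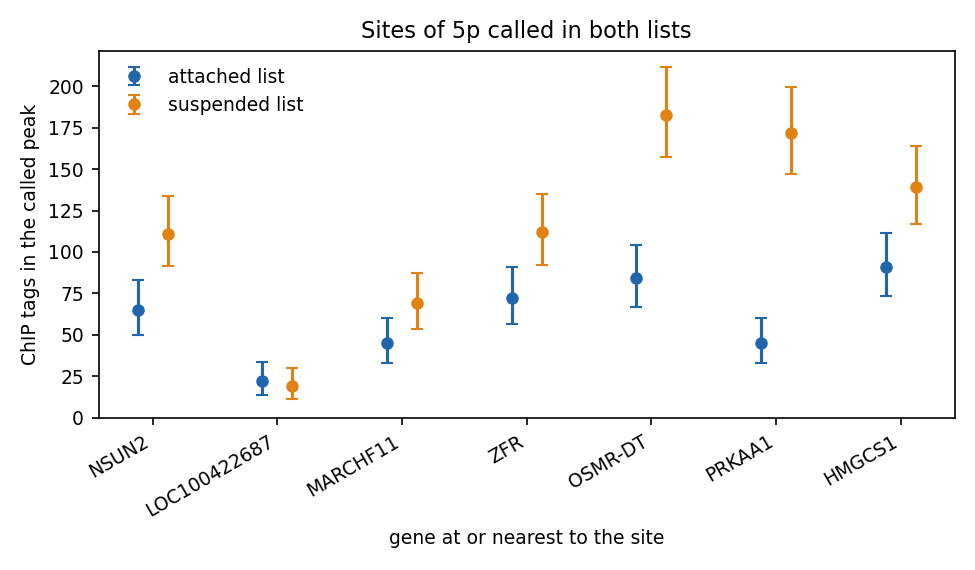
ChIP tags in the called peak (y axis) at the 7 sites of 5p present in both lists (x axis, named by the gene at or nearest to the site, OSMR-DT being the divergent transcript at the start of OSMR), for attached and suspended cells; bars are 95% Poisson intervals for counting error. The suspended value is the higher at 6 sites, with intervals apart at 5, and the widest gap is at PRKAA1, with 45 and 172 tags. The deposited fold, which is not shown, was lower in the suspended list at each of the 7 sites, but the folds of the lists are on unlike scales.

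The other 22 attached peaks had no suspended summit closer than 1603 bp. They comprised 11 between genes, 9 inside genes and 2 at gene ends, and 20 of them had an FDR of 100%. In the cadherin stretch from 18 to 31 Mb there were 10, among them 1 in CDH12 (12 tags, fold 17.44), 1 in CDH9 (15 tags, fold 13.49), 1 in the long non-coding gene LOC124900950 (8 tags, fold 28.23) and 1 in GUSBP1 (26 tags, fold 8.41). The remaining 6 lay between genes, nearest to LOC105374687, TRPC6P9, CDH10, RNU6-738P, LINC02103 and LOC107986409, with 12 to 22 tags. LPCAT1, an enzyme gene of phospholipid remodelling, held an attached peak of 42 tags. MYO10 had an attached peak of 32 tags in the gene, 50240 bp from the nearest suspended summit. Others lay at LOC124901167 (19 tags), between genes 34703 bp from TRIO (32 tags), between genes nearest to LOC100132524 (11), NIPBL-DT (15) and CCDC152 (8), and in the places already given for RICTOR, MTRR and the chromosome tip.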

How the data were processed

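The files are 2 peak lists from 4 libraries (1 ChIP and 1 input from attached cells, the same from suspended cells), made by the authors with MACS 1.4.2, each ChIP against the input of its condition, per the file headers. The settings were 1 tag kept per position, a band width of 200 bp and a p-value limit of 1e-05. The modelled fragment length was 58 bp (attached) and 63 bp (suspended), per the file headers. The submitters' processing notes name hg38 as the build. The sources used here give no aligner. Tags are deposited as a raw count per peak, not normalized. Fold is deposited as the authors' ratio over local background. The score deposited by the authors is minus 10 times log10 of the p-value, as the order of the columns and the minimum of 50 show, the column's own name having been lost. The FDR is deposited as a percent.

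The local background was solved as the Poisson mean at which the deposited tags give the deposited score over the peak (or over 2 fragment lengths where the peak is narrower). The summit height implied by fold and background came out whole within 0.03 for 29 of 29 attached and 369 of 392 suspended 5p peaks. Simulated peaks took the real widths and tag numbers with randomly drawn backgrounds, and were scored by the same Poisson formula. The procedure recovered their background within 1% for 100% of 161 attached and 3674 suspended peaks. This checks the solving step only, and cannot show that the formula holds for the real peaks. Genes came from a RefSeq table (GRCh38.p14) of 59096 gene spans without strand or exons, so exons, introns and UTRs were not assigned, and 583 entries on other scaffolds were left out (10 of them protein-coding entries that would otherwise count on 5p). Promoter sequences with strand matched 138 of the 157 protein-coding genes of 5p by symbol. Neighbouring genes can share a peak, which then counts for each.

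Of the per-sample columns 0 were left unmapped. The members, gene lists, motifs and stretches were chosen with earlier results of these data known. The rule for named genes took each attached 5p peak, the 12 suspended peaks of highest fold, the 10 of most tags and the 3 widest, list members with a peak, and the genes of the 3 fullest windows and of clusters of 4 or more peaks. The 10 gene lists are those described with the genes; genes outside the rule (C1QTNF3, the clusters of 3 peaks and the genes with many peaks) were named after their values were seen. A result that the rule names is not reported here. Exact Poisson and Clopper-Pearson intervals (95%) cover counting error only, and tags without molecular identifiers are not independent molecules. Order-statistic intervals of medians cover the spread among peaks of 1 library, taken as independent. Intervals for ratios of medians held the median of the rest of chromosome 5 fixed. With 1 library per group no p-value is given. Alternatives were limits on score, FDR and fold, the better-scoring 50% of each list, other lengths, gene-end distances, overlaps, gaps and windows, means for medians, and peaks with whole heights only. Python 3.11.15, numpy 2.4.6, pandas 2.3.3, SciPy 1.17.1 and matplotlib 3.10.9 were used.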

Additional observations from a re-analysis of the deposited data

How the results depend on the processing

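Of 74 alternative values, 37 stayed close to the value reported (counts within 1.5 times of it, shares and ratios within its 95% interval), 36 lay outside these bounds with no change of direction and 1 reversed: at a fold of at least 10 (chosen after seeing the data), 5p had 0.433 times the suspended peaks per Mb of the rest of chromosome 5, with 29 suspended and 18 attached peaks on 5p. A score of at least 100 left 1 attached and 34 suspended 5p peaks. With it the suspended ratio per Mb was 2.01, gene-end summits made up 79.4%, 32 protein-coding genes had a peak, there were 2 clusters and the fullest window held 5 peaks. The ratios of medians of 5p over the rest were then 2.44 (tags), 2.0 (width), 0.611 (fold) and 2.03 (background). That score limit, like an FDR of at most 5%, left 1 attached peak on 5p, MARCHF11, so the gene-end share and the shared share were each 100% and 1 gene had a peak. An FDR of at most 5% moved the suspended gene-end share to 28.7% and the clusters to 35. In the better-scoring 50% of each list there were 12 attached and 195 suspended 5p peaks, 6 genes with an attached peak, a suspended gene-end share of 36.4%, a background ratio of 1.65, 27 clusters and 22 peaks in the fullest window. Other definitions moved the suspended ratio to 4.26 (per protein-coding gene), the gene-end share to 16.3% (500 bp), 30.1% (2 kb) and 17.6% (protein-coding genes only), the genes with an attached peak to 7 (peak within 1 kb of a gene end), the fold ratio to 0.677 (means) and the fullest window to 61 (2 Mb). The cause of these moves was not tested. The settings keep fewer peaks or count other positions. No paired analysis was possible because each group has 1 library. Tag numbers limit what single peaks show: the median 5p peak held 20 tags in attached and 27 in suspended cells.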
